A study of Mus musculus with 8 samples.

Results

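Levels of 10 genes of vascular growth factors and vasoactive peptide systems, Edn1, Ece1, Ednrb, Ace, Agtr1a, Adm, Vegfa, Pdgfb, Hbegf and Igf1, were examined among 53735 genes counted in bone marrow derived macrophages (BMDMs). They were taken by symbol from the raw count tables of both experiments. WT macrophages were Mkl1+/+, Apoe-/- and KO macrophages were Mkl1-/-, Apoe-/-, all grown from the marrow of 6-month-old male mice that had received angiotensin II (Ang II) for 7 days from osmotic minipumps. The labels give the dose as 1.44 mg/kg per day, beside a rate per minute that does not equal it. Marrow cells were differentiated in culture for 7 days before RNA was isolated. Libraries 1 to 4 were WT and 5 to 8 were KO. Experiment 1 held WT 1, WT 2, KO 5 and KO 6, and experiment 2 held WT 3, WT 4, KO 7 and KO 8. The knockout was global rather than limited to macrophages, both genotypes lacked Apoe and received Ang II, and no library from saline-infused mice was analysed here. The question the comparison addressed was how loss of MKL1, a coactivator of serum response factor (SRF), altered the macrophage transcriptome.

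Endothelin-1 is a strong constrictor of blood vessels. It is released as a precursor that endothelin converting enzyme (Ece1) cuts into the active peptide, and it acts through receptors of types A (Ednra) and B (Ednrb). Angiotensin converting enzyme (Ace) makes Ang II, which acts mainly through the AT1 receptor (Agtr1a in mice). Adrenomedullin (Adm) dilates vessels and acts through the receptor Calcrl paired with a RAMP protein. VEGF-A, PDGF-B, HB-EGF and IGF-1 are secreted or shed growth factors for endothelial cells, mural cells, epithelial and smooth muscle cells, and many tissues, in that order. Macrophages are a known source of VEGF-A, PDGF-B, HB-EGF and IGF-1 in vessel walls and wounds.

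The depth was between 33977799 and 41584540 counts per library, and levels are given as CPM, the counts of a gene scaled to a fixed library total. Mkl1, the targeted gene, was still counted in KO libraries, at 25.1, 27.2, 24.9 and 29.3 CPM in WT 1 to 4 and 20.3, 22.02, 14.5 and 10.6 CPM in KO 5 to 8, so that every KO library was below every WT library (log2 fold change -0.39 in experiment 1 and -1.17 in experiment 2, edgeR adjusted p = 0.00381 and 0.0218). With both experiments in 1 fit it was -0.78 (edgeR adjusted p = 0.0574). Alternatives with all libraries of experiment 1 kept an adjusted p under 0.05 in 5 of 6 cases. With a library left out, the log2 fold change of Mkl1 was -0.45 to -0.34 in experiment 1 and -1.43 to -0.95 in experiment 2. The part of Mkl1 that the knockout removes is not given in the sources used here. Libraries did not group by genotype over all genes. WT of experiment 1 was nearest to KO of experiment 2 (SD of the log2 difference 0.406), whereas KO of experiment 1 and WT of experiment 2 were farthest apart (0.983). KO means of Mkl1 were 1.24-fold below WT in experiment 1 and 2.16-fold below in experiment 2. Whether labels and cultures of both experiments were matched correctly was not tested, so every direction of KO against WT rests on the labels as given. The 10 macrophage markers summed to 16951 to 36195 CPM in every library, but single markers moved, with 3 called lower and 6 higher in experiment 1 and 7 of 10 with a called interaction. Adgre1, for example, had log2 fold changes of -2.11 in experiment 1 and 0.91 in experiment 2 (edgeR adjusted p = 0.0258). The 9 fibroblast markers summed to 269.8 CPM in KO 5 and 352.6 CPM in KO 6, and to between 2.92 and 17.5 CPM in the 6 other libraries. The series' design text says that the comparison was made separately in each experiment. KO was therefore compared with WT within each experiment first, by edgeR's quasi-likelihood test. An adjusted p under 0.05 over the 14418 genes tested counted as a call. The labels do not say that libraries came from separate mice or cultures, so p-values measure only the spread between these samples.

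The 250 bases before the transcript start are shown for 3 genes, Edn1, Ednrb and Vegfa, because their KO and WT libraries did not overlap and at least 1 experiment called them. The sequences are from RefSeq on GRCm38.p6, 5′ to 3′ on the strand of the gene. They cover chr13:42301226-42301475 on the plus strand for Edn1, chr14:103843702-103843951 on the minus strand for Ednrb and chr17:46032378-46032627 on the minus strand for Vegfa. The RefSeq start of Ednrb lies inside the longer span that GENCODE gives the gene. Capitals mark a match to the GATA motif AGATAA, found on the strand shown in Vegfa alone among the 3.
Edn1: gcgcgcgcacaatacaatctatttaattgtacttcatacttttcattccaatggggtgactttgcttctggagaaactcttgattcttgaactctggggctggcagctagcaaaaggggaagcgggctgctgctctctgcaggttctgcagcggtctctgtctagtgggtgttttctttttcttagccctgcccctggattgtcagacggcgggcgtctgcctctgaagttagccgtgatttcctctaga
Ednrb: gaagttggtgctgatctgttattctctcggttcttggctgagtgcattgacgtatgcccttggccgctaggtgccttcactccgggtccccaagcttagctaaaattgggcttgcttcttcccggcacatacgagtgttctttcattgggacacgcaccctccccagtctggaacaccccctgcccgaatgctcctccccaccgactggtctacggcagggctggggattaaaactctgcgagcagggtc
Vegfa: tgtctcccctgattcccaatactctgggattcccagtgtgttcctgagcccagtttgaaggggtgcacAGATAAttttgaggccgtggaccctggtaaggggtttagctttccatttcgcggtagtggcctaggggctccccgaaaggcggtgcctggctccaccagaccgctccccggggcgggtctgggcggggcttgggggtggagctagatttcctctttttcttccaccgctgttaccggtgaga
Windows of 7 members were used, without Agtr1a, Pdgfb and Hbegf. They were searched on both strands for the AP-1 motif TGANTCA, the core of the hypoxia response element ACGTG and the GATA motif AGATAA. The TATA box TATAAA and the CArG box, the element that SRF binds, were searched for as well. The windows of Edn1 and Ednrb held none of the 5, and the other matches among the 7 were the AP-1 motif in Igf1 and the TATA box in Ace. Of 32817 windows of the same length, 6.75% held the AP-1 motif, 16.6% the hypoxia core, 9.99% the GATA motif, 12.4% the TATA box and 1.47% the CArG box. A match or its lack describes these letters only.

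The 10 genes covered a wide range of levels. Per kilobase of exon, Igf1 was the highest of the set, with a mean over the 8 libraries of 59.6 CPM per kb and a range of 41.6 to 75.8 CPM per kb. Vegfa, Ednrb, Ece1 and Pdgfb followed at means of 13.6, 11.4, 10.2 and 8.41 CPM per kb, and their ranges over libraries overlapped, so that their order was not resolved. Adm and Edn1 were at 1.33 and 1.12 CPM per kb, and Hbegf was at 0.145 CPM per kb. The ranges of Adm, Edn1 and Hbegf overlapped, so that their order was not resolved either. Ace and Agtr1a stayed below 10 counts in every library and were left out by the filter on low counts. Adm fell below 10 counts in 1 library, WT 4, with 7 counts. Thus 8 of the 10 members passed the filter on low counts.

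**Figure D1:**
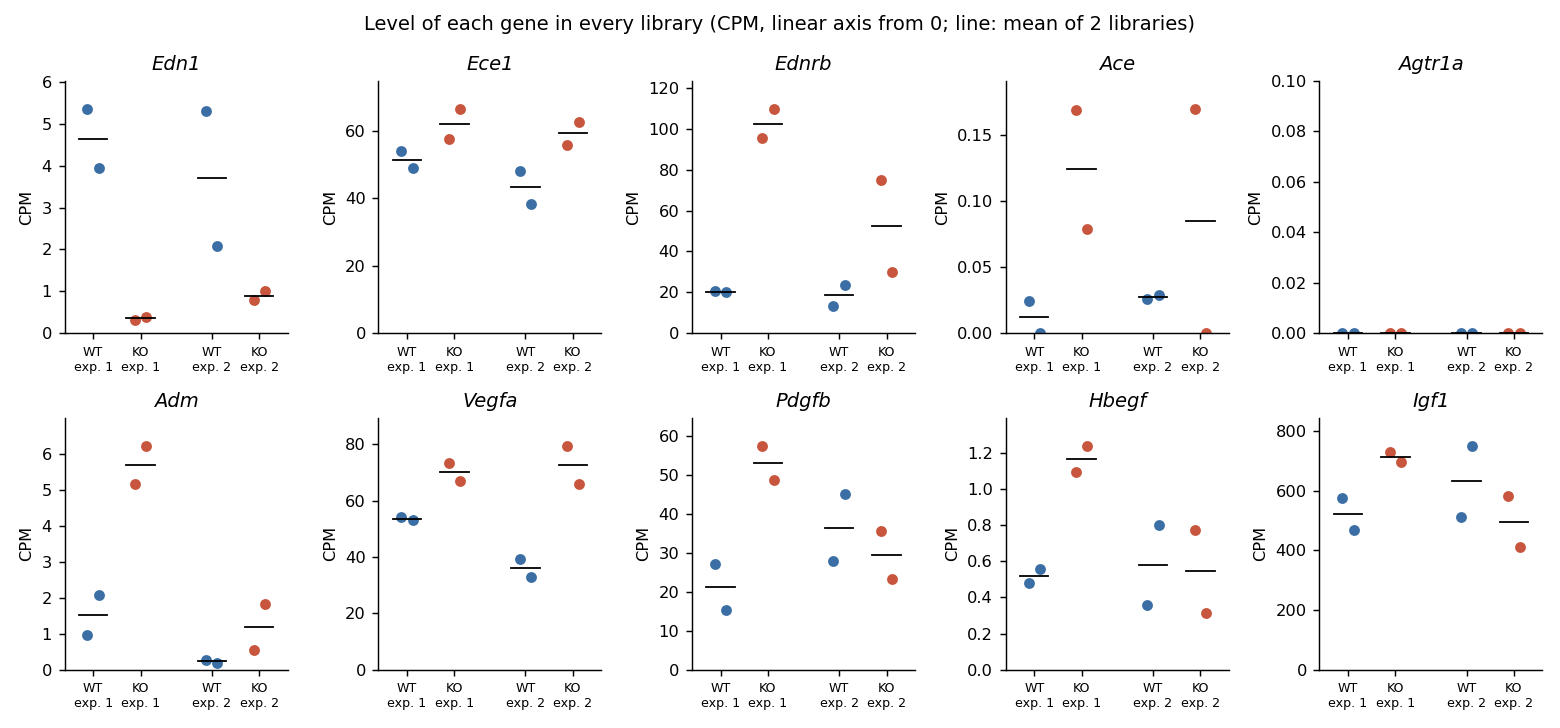
Level of each of the 10 genes in CPM (linear vertical axes from 0) in the 8 libraries, in columns for WT and KO of experiments 1 and 2. Points are libraries (blue WT, red KO) and lines are means of 2 libraries. Every KO point for Edn1 is below every WT point, every KO point for Ednrb, Ece1 and Vegfa is above every WT point, and Agtr1a is at 0 throughout.

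In experiment 1, the members called were 1 lower in KO, Edn1, and 5 higher, Ednrb, Adm, Vegfa, Hbegf and Igf1, of 8 tested. Over all genes tested, 28.1% were called lower and 27% higher in experiment 1, 55.1% in all, so that a call was common there. With all 4 groups in 1 fit, Vegfa, Hbegf and Igf1 lost their calls in experiment 1 and Pdgfb gained one. In experiment 2, 1 of 8 members was called, Vegfa, which was higher, beside 7.52% of all genes higher and 8.29% lower. No member was called lower in experiment 2 by edgeR, where 1 member, Edn1, was lower at an unadjusted p under 0.05. Edn1 was called there by DESeq2, and by edgeR with no filter beyond 1 count, with 4 groups in 1 fit and without WT 4. Ednrb and Adm were called there by DESeq2 and with 4 groups in 1 fit, and Adm also with no filter. With both experiments in 1 fit and the experiment as a term, Edn1 was lower and Ednrb and Adm were higher, beside 3.41% of all genes lower and 3.72% higher, 7.12% in all. The interaction of experiment and genotype was called for 2 members, beside 41.6% of all genes tested, with a lower effect in experiment 2 than in experiment 1 for Pdgfb (20.6% of all genes) and a higher one for Vegfa (21%). The median log2 fold change of the 8 members was 0.72 in experiment 1 and 0.13 in experiment 2, against 0.0136 and 0.0067 over all genes tested. Over the 8 libraries, all KO libraries were below all WT libraries for 1 member (4.27% of all genes tested) and above them for 3 members, Ece1, Ednrb and Vegfa (8.54% of all genes tested).

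Edn1, which encodes the endothelin-1 precursor (chr13:42301476-42307990, plus strand, GRCm38), was low in WT and lower in KO. Its level was 5.36, 3.94, 5.32 and 2.08 CPM in WT 1 to 4 and 0.309, 0.395, 0.798 and 0.997 CPM in KO 5 to 8. These were 223, 134, 209 and 73 counts in WT and 11, 15, 33 and 41 counts in KO, and the lowest WT library was still above the highest KO library. The mean was 4.18 ± 1.55 CPM for WT against 0.625 ± 0.327 CPM for KO (SD, n = 4 each; two-sided exact permutation test, p = 0.0286, the smallest that 70 arrangements allow). Exchanging labels only within experiments gave an exact p of 0.0556, the smallest that 36 arrangements allow. In experiment 1, the KO mean was 13.2-fold below WT and the log2 fold change was -3.81 (standard error 0.29, edgeR adjusted p = 2.17e-05). In experiment 2, the KO mean was 4.12-fold below WT, with a log2 fold change of -2.13 (standard error 0.54, edgeR adjusted p = 0.0586), which missed the threshold. The WT libraries of experiment 2 differed from each other by 2.56-fold, and leaving out the lower, WT 4, gave -2.67 (adjusted p = 0.0104), whereas leaving out WT 3 gave -1.23 (adjusted p = 0.149). With both experiments the log2 fold change was -2.92 (standard error 0.49, adjusted p = 0.0197). That call held without WT 4 or KO 8 and was lost when any of the 6 other libraries was left out, with adjusted p up to 0.0729 and log2 fold changes between -3.33 and -2.65.

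Ednrb, which encodes the type B endothelin receptor (chr14:103814625-103844402, minus strand), moved the other way. WT libraries had 20.8, 19.95, 13.3 and 23.7 CPM and KO libraries had 95.6, 109.9, 75.1 and 29.9 CPM. All KO libraries were above all WT libraries, although KO 8 was nearer to WT 4 than to any other KO library. WT averaged 19.4 ± 4.39 CPM against 77.6 ± 34.9 CPM for KO (SD, n = 4 each; two-sided exact permutation p = 0.0286, and 0.0556 within experiments). KO was 5.05-fold above WT in experiment 1, at a log2 fold change of 2.24 (standard error 0.08, edgeR adjusted p = 1.18e-06). In experiment 2 it was 2.84-fold above WT, at 1.46 (standard error 0.51, adjusted p = 0.122). The KO libraries of experiment 2 differed by 2.51-fold, so that this effect was 0.62 without KO 7 and 1.99 without KO 8. Both experiments together gave 1.86 (standard error 0.34, adjusted p = 0.0260), a call that held without WT 4 or KO 8 and was lost without any of the other libraries (adjusted p up to 0.0967). It was also lost with no filter beyond 1 count. The interaction missed the threshold for Ednrb (adjusted p = 0.300) and Edn1 (0.0976). It was called for both with no filter beyond 1 count (adjusted p = 0.000107 and 0.000638), for Ednrb without KO 7 (0.0119) and for Edn1 without WT 3 (0.00685).

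Ece1, the converting enzyme (chr4:137862237-137965229, plus strand), had 54.1, 48.9, 48.2 and 38.4 CPM in WT 1 to 4 and 57.6, 66.5, 55.9 and 62.7 CPM in KO 5 to 8. The groups did not overlap, but the gap between WT 1 and KO 7 was smaller than the spread within either genotype. Means were 47.4 ± 6.56 and 60.7 ± 4.87 CPM (SD, n = 4 each; two-sided exact permutation p = 0.0286, and 0.0556 within experiments). The log2 fold change was 0.18 (standard error 0.09, edgeR adjusted p = 0.131) in experiment 1, 0.38 (0.17, adjusted p = 0.172) in experiment 2 and 0.29 (0.12, adjusted p = 0.187) with both. No comparison called Ece1. It was called in experiment 1 under upper-quartile scaling (0.28, adjusted p = 0.0247) and without KO 5 (0.27, adjusted p = 0.0336).

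None of the 5 other endothelin pathway genes passed the filter on low counts, so none was tested with that filter. Edn2 had no count. Edn3, another ligand, reached 7 counts, the converting enzyme Ece2 reached 3, and Ednra, the type A receptor, reached 17. Mme, neprilysin, an enzyme that degrades endothelins among other peptides, had 91 and 157 counts in KO 5 and KO 6 and at most 4 in the other libraries. With no filter beyond 1 count, Ednra and Mme were called in experiment 1 and for the interaction. Of the endothelin receptors, Ednrb was therefore the only one above 17 counts in any library.

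Ace (chr11:105967945-105989964, plus strand) was at 1, 0, 1 and 1 counts in WT 1 to 4 and at 6, 3, 7 and 0 counts in KO 5 to 8. The sums were 3 of 149901273 counts in WT and 16 of 156032047 in KO, a ratio of 5.12 (95% exact interval 1.47 to 27.4, counting error only). The KO libraries ranged from no count to the highest count of the gene, so the ratio is not a test of genotype. Agtr1a (chr13:30336441-30382867, plus strand), the main receptor of the infused peptide, had no count in any of the 8 libraries. A count of 0 allows up to 3 counts, which are 0.0721 to 0.0883 CPM at these depths, so Agtr1a mRNA was not detectable at this depth. Agtr1a overlaps Gm48161, a gene on the same strand, and whether reads shared by both were counted was not tested. Of 12 further genes of the renin-angiotensin system, 5 were tested. Ren1, Agtr1b, Agtr2 and Mas1, which encode renin and other angiotensin receptors, had no count, and Enpep, an aminopeptidase, reached 5 counts. Agt, angiotensinogen, had 32 and 34 counts in KO 5 and KO 6 and at most 2 in the other libraries. With no filter beyond 1 count, Agt was called in experiment 1 and with both experiments. In experiment 1, Atp6ap2, the renin receptor, and Lnpep, an aminopeptidase that binds angiotensin IV, were lower in KO, and the aminopeptidases Anpep and Rnpep were higher. In experiment 2, Agtrap, a protein that binds the AT1 receptor, was lower, a call lost without any library of that experiment. Anpep, with the smallest p of the list in experiment 1, had a log2 fold change of 1.52 there (edgeR adjusted p = 3.03e-05) and of -0.40 in experiment 2 (adjusted p = 0.406).

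Adm (chr7:110627661-110629820, plus strand), the precursor of the dilator adrenomedullin, was higher in KO within each experiment and also differed between experiments. WT libraries had 0.962, 2.06, 0.280 and 0.200 CPM and KO libraries had 5.17, 6.22, 0.556 and 1.82 CPM, from 40, 70, 11 and 7 counts in WT and 184, 236, 23 and 75 counts in KO. Both KO libraries exceeded both WT libraries in either experiment, but KO 7 and KO 8 were below WT 2, so the genotypes overlapped over 8 libraries (two-sided exact permutation p = 0.143, and 0.0556 within experiments). WT macrophages of experiment 2 had 6.30-fold less Adm than those of experiment 1. KO was 3.77-fold above WT in experiment 1, at a log2 fold change of 1.85 (standard error 0.32, edgeR adjusted p = 0.00334). It was 4.96-fold above WT in experiment 2, at 2.21 (standard error 0.69, adjusted p = 0.0917), with 3.28-fold between its KO libraries. The effect was 2.82 without KO 7 and 1.14 without KO 8, and neither passed the threshold. With both experiments it was 2.01 (standard error 0.43, adjusted p = 0.0396), and the call held only without KO 7 or KO 8 (adjusted p up to 0.125 for the others). The interaction was 0.36 (adjusted p = 0.755).

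**Figure D2:**
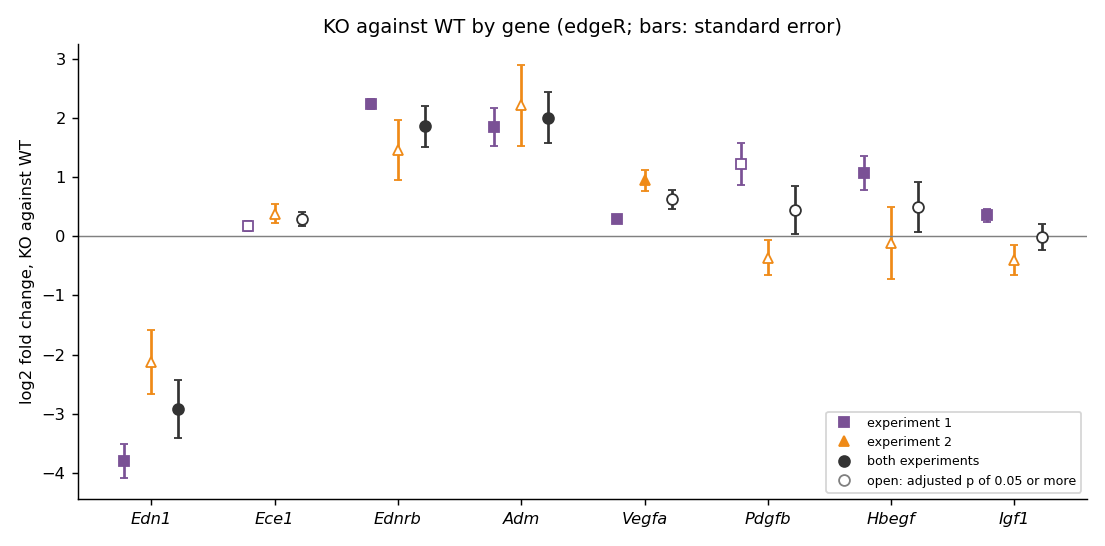
Log2 fold change of KO against WT (vertical axis) for the 8 genes tested (horizontal axis), with bars for the standard error. Squares are experiment 1, triangles experiment 2 and circles both experiments, filled where the edgeR adjusted p was under 0.05. Edn1 lies below 0 and Ednrb, Adm, Vegfa and Ece1 above 0 in every comparison, and Pdgfb, Hbegf and Igf1 are above 0 in experiment 1 and below 0 in experiment 2.

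Of 6 further genes of the adrenomedullin system, Calcrl and Ramp1 were tested. Ramp2 and Ramp3, whose products pair with Calcrl to form the adrenomedullin receptors, reached 4 and 3 counts. Calcrl, the receptor for adrenomedullin and for calcitonin gene related peptide, had 270.3, 194, 275 and 301 CPM in WT 1 to 4 and 122, 133, 187 and 131 CPM in KO 5 to 8, with no overlap. Its log2 fold change was -0.96 in experiment 1 (edgeR adjusted p = 0.0205), -0.92 in experiment 2 (adjusted p = 0.0414) and -0.93 with both (adjusted p = 0.0208). The call in experiment 1 was lost with no filter beyond 1 count (adjusted p = 0.0622) and without KO 5 or KO 6 (adjusted p up to 0.226), and that in experiment 2 held only without KO 7 (adjusted p up to 0.125). The call with both experiments was lost without WT 1, WT 4, KO 5 or KO 6 (adjusted p up to 0.0786). Ramp1, which sets the receptor towards calcitonin gene related peptide, went in opposite directions in the experiments. It had 0.0721, 0.147, 1.55 and 1.68 CPM in WT 1 to 4 and 4.97, 5.24, 0.290 and 0.219 CPM in KO 5 to 8. The log2 fold change was 5.45 in experiment 1 (adjusted p = 6.33e-06) and -2.71 in experiment 2 (adjusted p = 0.0143), and the interaction was -8.17 (adjusted p = 9.15e-05). WT 1 and WT 2 held 3 and 5 counts of Ramp1, so the size of the rise in experiment 1 was uncertain, and in experiment 2 the call was lost without KO 7 or KO 8 (adjusted p up to 0.0772).

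Vegfa (chr17:46016993-46032369, minus strand) was the member called in each experiment alone. WT libraries had 54.3, 53.0, 39.2 and 32.8 CPM and KO libraries had 73.3, 67.0, 79.5 and 65.7 CPM. All KO libraries were above all WT libraries, and the WT libraries of experiment 2 were the lowest of the 8. WT averaged 44.8 ± 10.5 CPM against 71.4 ± 6.31 CPM for KO (SD, n = 4 each; two-sided exact permutation p = 0.0286, and 0.0556 within experiments). KO was 1.31-fold above WT in experiment 1, at a log2 fold change of 0.30 (standard error 0.07, edgeR adjusted p = 0.00808), and 2.02-fold above it in experiment 2, at 0.95 (standard error 0.17, adjusted p = 0.0267). The effects differed, with an interaction of 0.64 (standard error 0.20, adjusted p = 0.0394). KO means were alike in both experiments (ratio 1.03), and the WT mean of experiment 2 was 1.49-fold below that of experiment 1. The fit with both experiments gave 0.63 (standard error 0.16, adjusted p = 0.0663), which was called by DESeq2, under upper-quartile scaling and with the interaction kept (adjusted p down to 0.00408). The call in experiment 1 was lost without WT 2 (adjusted p = 0.0532), that in experiment 2 without WT 4, KO 7 or KO 8 (adjusted p up to 0.0916), and that of the interaction unless WT 3 or KO 8 was the library left out (adjusted p up to 0.127). Higher calls in both experiments alone were made for 2.13% of all genes tested.

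Pdgfb (chr15:79995874-80014977, minus strand), the B chain of PDGF, differed by experiment. It had 27.0, 15.3, 27.8 and 45.0 CPM in WT 1 to 4 and 57.5, 48.5, 35.6 and 23.1 CPM in KO 5 to 8. In experiment 1 both KO libraries were above both WT libraries, at a log2 fold change of 1.222 (standard error 0.36, edgeR adjusted p = 0.0710), and in experiment 2 the genotypes overlapped, at -0.36 (adjusted p = 0.449). The interaction was -1.598 (standard error 0.47, adjusted p = 0.0294), called also without WT 1, WT 3 or KO 7 and lost without any of the 5 other libraries (adjusted p up to 0.122). The WT libraries of experiment 1 differed by 1.77-fold. Without WT 1 the effect in experiment 1 was 1.73 (adjusted p = 0.000231) and without WT 2 it was 0.86 (adjusted p = 0.00206), both called, whereas without KO 5 it was 1.09 (adjusted p = 0.360) and without KO 6 it was also not called. It missed the threshold with no filter beyond 1 count (adjusted p = 0.267) and was called by DESeq2 (adjusted p = 0.0125) and limma-voom (adjusted p = 0.0445).

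Hbegf, on chromosome 18, encodes a membrane-bound EGF receptor ligand that is released by shedding. Its level was low, with 20, 19, 14 and 28 counts in WT 1 to 4 and 39, 47, 32 and 13 counts in KO 5 to 8, which were 0.481, 0.559, 0.357 and 0.798 CPM and 1.10, 1.24, 0.774 and 0.316 CPM. The KO libraries of experiment 1 were the highest, and those of experiment 2 held both a value above and a value below that of WT 3. The fitted log2 fold change of Hbegf was 1.08 in experiment 1 (standard error 0.29, edgeR adjusted p = 0.0134) and -0.12 in experiment 2 (standard error 0.61, adjusted p = 0.910). The call in experiment 1 was lost without WT 1 (adjusted p = 0.0648) or KO 6 (0.0597) and with DESeq2 (0.109), and the interaction, at -1.21, missed the threshold (adjusted p = 0.200).

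Igf1 (chr10:87858265-87937042, plus strand), a growth and survival factor made by many tissue macrophages, was the most abundant member. WT libraries had 575, 469.6, 512 and 750.3 CPM and KO libraries had 728, 697, 580.5 and 412 CPM. KO was above WT in experiment 1, by 1.36-fold, while the genotypes overlapped in experiment 2. For Igf1 the log2 fold change was 0.36 in experiment 1 (standard error 0.11, edgeR adjusted p = 0.0343), -0.40 in experiment 2 (standard error 0.25, adjusted p = 0.319) and -0.02 with both (adjusted p = 0.977). The call in experiment 1 held without WT 1 and was lost without WT 2, KO 5 or KO 6 (adjusted p up to 0.143). The interaction was -0.77 (adjusted p = 0.0804). Pdgfb, Hbegf and Igf1 thus had positive log2 fold changes in experiment 1 and negative ones in experiment 2, and the interaction of Pdgfb was called. That of Igf1 was called by DESeq2 (adjusted p = 0.0317), with no filter and without WT 3 or KO 7, and that of Hbegf without KO 7 (0.0481).

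The growth factor receptors and relatives were taken from lists of the VEGF, PDGF, EGF and IGF families. With the endothelin, renin-angiotensin and adrenomedullin lists these held 65 genes in the tables, of which 33 were tested. In experiment 1, 7 of the 33 were lower and 15 higher, in experiment 2, 6 were lower and 4 higher, and with both experiments, 3 were lower and 3 higher. These were 22, 10 and 6 of 33, beside 55.1%, 15.8% and 7.12% of all genes tested. The medians of their log2 fold changes were 0.08, -0.14 and 0.26, against 0.0136, 0.0067 and 0.0043 over all genes. The interaction was called for 19 of the 33, beside 41.6% of all genes. Calls in the same direction in each experiment alone were made for 3 of the 33, Calcrl, Vegfc and Adam17, all lower, beside 2.25% of all genes tested.

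**Figure D3:**
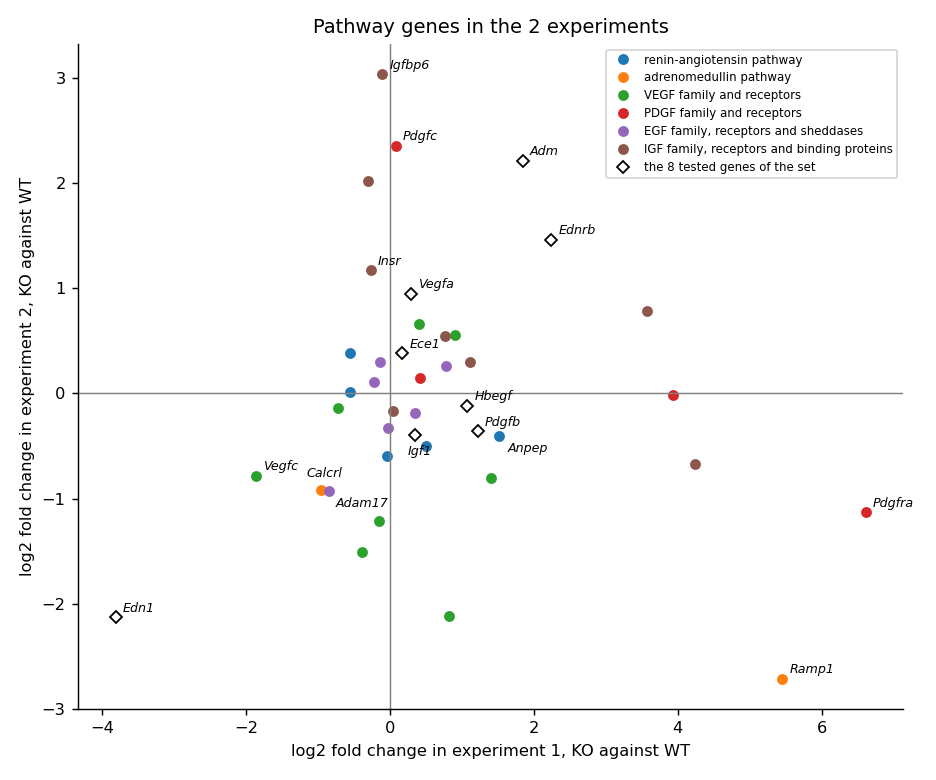
Log2 fold change of KO against WT in experiment 1 (horizontal axis) and experiment 2 (vertical axis), 1 point per gene, for the 33 pathway genes tested (coloured by list) and the 8 members tested (diamonds). Calcrl, Vegfc and Adam17 lie with Edn1 at the lower left, Ednrb and Adm at the upper right, and Ramp1 and Pdgfra far to the right and below 0.

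Of the 8 VEGF family genes tested, Vegfc, the ligand of lymphatic endothelium, was lower in each experiment. It had 11.2, 7.80, 6.80 and 7.61 CPM in WT 1 to 4 and 2.92, 2.66, 4.38 and 4.35 CPM in KO 5 to 8, so that KO was below WT in all libraries while Vegfa was above. Its change was -1.87 on the log2 scale in experiment 1 (edgeR adjusted p = 0.000239) and -0.78 in experiment 2 (adjusted p = 0.0427), a call lost under upper-quartile scaling (adjusted p = 0.0544) and without any library of experiment 2 (adjusted p up to 0.153). The decrease was smaller in experiment 2 (interaction 1.07, adjusted p = 0.0207), a call lost without WT 1 or KO 6 (adjusted p up to 0.0760). Vegfb, a relative with a role in heart and muscle vessels, and Nrp1, a coreceptor for VEGF-A and semaphorins, were higher in KO in all libraries, with called changes of 0.91 and 0.41 in experiment 1 and 0.73 and 0.54 with both experiments (adjusted p = 0.0317 and 0.0458). The calls with both experiments held without KO 8, for Vegfb also without WT 3, and were lost without any of the other libraries (adjusted p up to 0.0972 and 0.128), for Nrp1 also with no filter beyond 1 count. The receptors Kdr and Flt4 were called higher in experiment 1, and the coreceptor Nrp2 lower in experiment 2. The call of Flt4 was lost with DESeq2, with 4 groups in 1 fit and without WT 1, KO 5 or KO 6, that of Kdr with 4 groups in 1 fit, and that of Nrp2 without WT 3 or KO 8. Kdr, the main VEGF-A receptor, had 19.0, 19.2, 161 and 67.8 CPM in WT 1 to 4 and 36.5, 35.0, 33.3 and 22.4 CPM in KO 5 to 8. Its log2 fold change was 0.82 in experiment 1 and -2.12 in experiment 2 (edgeR adjusted p = 0.0517), with an interaction of -2.95 (adjusted p = 0.00549). The interaction of Kdr was also called with any single library left out (adjusted p up to 0.0373), and the change in experiment 2 was called without WT 4 (-2.64, adjusted p = 0.0110). That change was also called by DESeq2, with 4 groups in 1 fit, under upper-quartile scaling and with at least 10 counts in every library (adjusted p down to 0.00634).

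Of the 4 PDGF family genes tested, the receptors Pdgfra and Pdgfrb and the ligand Pdgfa were called higher in experiment 1, Pdgfa not with 4 groups in 1 fit or without WT 1 or KO 5. Pdgfra, a receptor typical of fibroblasts, had 0.168, 0.500, 0.892 and 1.596 CPM in WT 1 to 4 and 31.4, 35.8, 1.09 and 0.0729 CPM in KO 5 to 8. Only KO 5 and KO 6 were above 2 CPM. Its log2 fold change was 6.61 in experiment 1 (edgeR adjusted p = 8.79e-06) and -1.13 in experiment 2 (adjusted p = 0.487). In experiment 2, the ligand Pdgfc was called higher, at 2.36 (adjusted p = 0.0201), after 0.08 in experiment 1. That call held without KO 8 and was lost without WT 3, WT 4 or KO 7 (adjusted p up to 0.0838).

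Of the 6 genes of the EGF family list that were tested, Adam17, the sheddase that releases HB-EGF and other EGF receptor ligands, was lower in each experiment. WT libraries had 600.5, 499.5, 824 and 774 CPM and KO libraries had 328, 324, 462 and 417 CPM, with no overlap. The log2 fold change was -0.85 in experiment 1 (edgeR adjusted p = 0.000485), -0.93 in experiment 2 (adjusted p = 0.0220) and -0.88 with both (adjusted p = 0.00749). The call with both experiments held without any single library (adjusted p up to 0.0388), whereas that in experiment 2 held only without WT 4 (adjusted p up to 0.107). Adam10, a related sheddase, was lower and Egfr higher in experiment 1. The call of Adam10 was lost under upper-quartile scaling, with 4 groups in 1 fit and without WT 1 or KO 6. The ligands Areg, Ereg, Btc, Tgfa, Epgn and Nrg1 did not pass the filter on low counts. Nrg1 had 53 and 96 counts in KO 5 and KO 6 and at most 10 in the other libraries. With no filter beyond 1 count it was called in experiment 1 and for the interaction.

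Of the 8 IGF family genes tested, Insr, the insulin receptor, was called in opposite directions, although the call in experiment 1 was lost under several settings. It had 55.0, 55.9, 27.2 and 28.2 CPM in WT 1 to 4 and 52.0, 46.4, 58.6 and 72.0 CPM in KO 5 to 8. The WT libraries of experiment 2 were the 2 lowest. Its log2 fold change was -0.26 in experiment 1 (edgeR adjusted p = 0.0180) and 1.17 in experiment 2 (adjusted p = 0.0103), with an interaction of 1.42 (adjusted p = 0.000682). The fall in experiment 1 was called without KO 5 and lost without WT 1, WT 2 or KO 6 (adjusted p up to 0.0852). It was also lost with all libraries kept, under upper-quartile scaling (-0.16, adjusted p = 0.108) and with 4 groups in 1 fit. The rise in experiment 2 was lost without KO 8 (0.0515). Igf1r, the IGF-1 receptor, Irs1, an adaptor of the receptor, and the binding proteins Igfbp4 and Igfbp7 were called higher in experiment 1. Both binding proteins lost that call without KO 5 or KO 6, and Igfbp7 also with no filter beyond 1 count. Igfbp4 was called higher with both experiments as well. That call held without KO 8 and was lost without any of the other libraries. In experiment 2, the adaptor Irs2 and the binding protein Igfbp6 (3.04, adjusted p = 0.0150) were called higher. The call of Igfbp6 held only without WT 4 (adjusted p up to 0.0754), and that of Irs2 was lost with limma-voom and without any library of experiment 2.

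**Figure D4:**
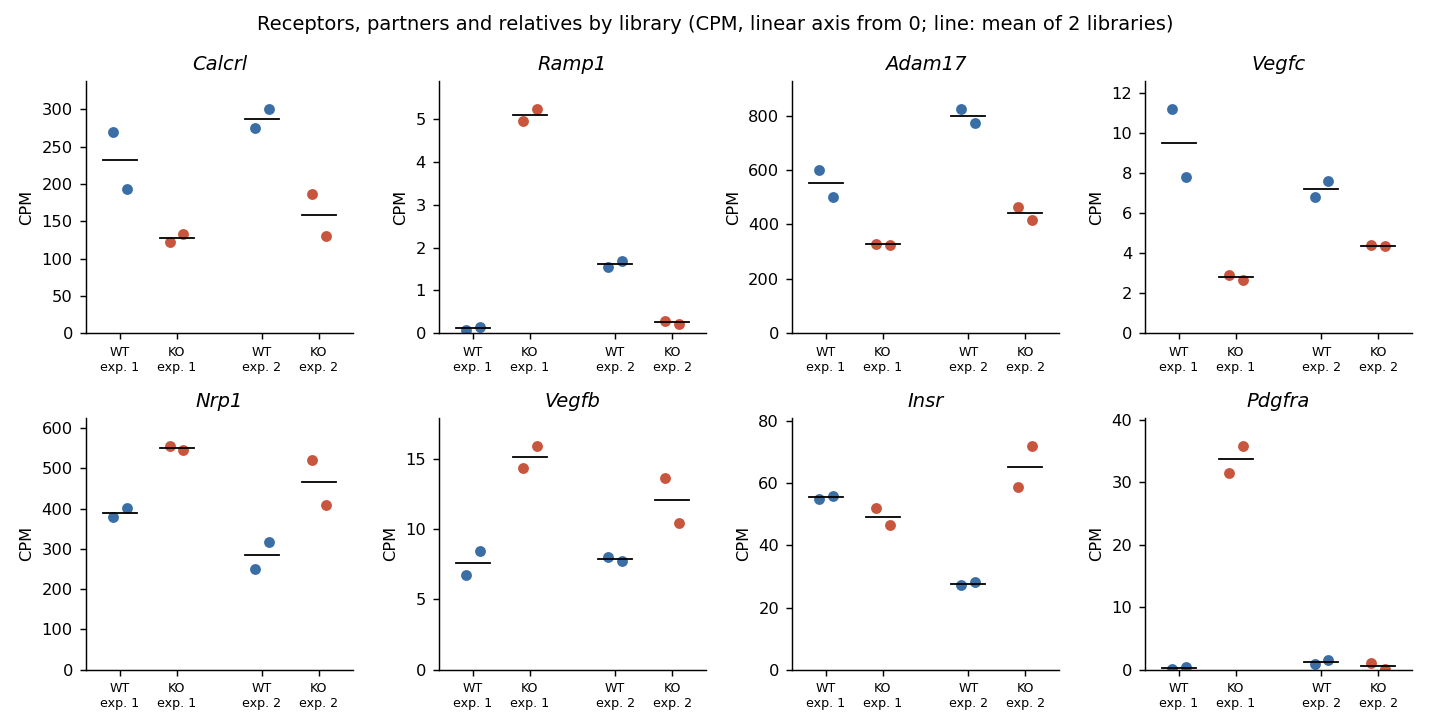
Level in CPM (linear vertical axes from 0) of 8 receptors, partners and relatives in the 8 libraries, in columns for WT and KO of experiments 1 and 2. Points are libraries (blue WT, red KO) and lines are means of 2 libraries. Calcrl, Adam17 and Vegfc have every KO library below every WT library, Nrp1 and Vegfb have every KO library above, and Ramp1 and Pdgfra are highest in the KO libraries of experiment 1.

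The KO libraries of experiment 1, in which Ednrb, Adm, Hbegf and Pdgfb were highest, also had the highest sums of fibroblast, smooth muscle and endothelial markers. Of the 9 fibroblast markers, 8 were highest in both of these libraries, and Lum stayed at 10 counts or fewer. The summed level was 7.09 to 16.9 CPM in WT and 269.8 to 352.6 CPM in KO of experiment 1, against 12.7 to 16.2 CPM in WT and 2.92 to 17.5 CPM in KO of experiment 2. The 6 smooth muscle markers summed to 28.6 and 37.5 CPM in KO of experiment 1 and to 2.699 to 11.03 CPM in the 6 other libraries, with the defining genes Myh11 and Cnn1 at 10 counts or fewer. The 8 endothelial markers summed to 134 and 166 CPM in the same KO libraries and to 45.7 to 71.3 CPM in the others, nearly all from Vwf, while Tek, Tie1, Cldn5, Erg and Robo4 were at 10 counts or fewer. Neutrophil and dendritic cell markers summed to at most 1.491 and 1.503 CPM. In experiment 2 the fibroblast sums of WT and KO overlapped, but the smooth muscle sums did not, at 8.02 and 11.03 CPM in WT and 3.46 and 2.699 CPM in KO. Acta2 and Tagln of that list and the endothelial marker Cdh5 were called lower in KO there, at log2 fold changes of -1.57, -4.16 and -2.06 (edgeR adjusted p = 0.0174, 0.0491 and 0.0356). The part of these other cell types in the results of either experiment was not tested. In bulk libraries such as these, fewer cells of a type and less RNA per cell cannot be told apart.

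**Figure D5:**
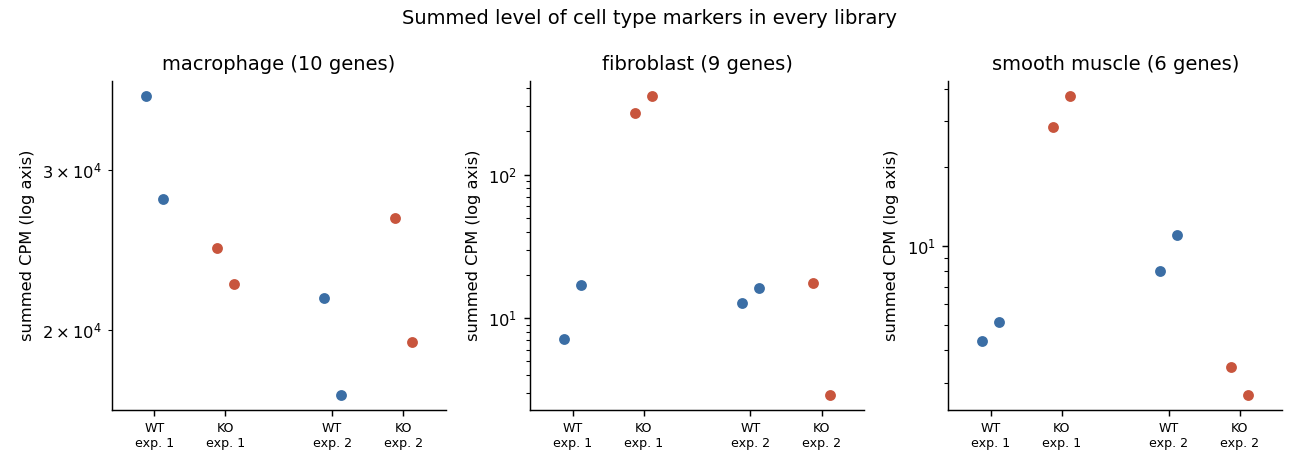
Summed CPM (log vertical axes) of macrophage, fibroblast and smooth muscle markers in the 8 libraries, in columns for WT and KO of experiments 1 and 2. Points are libraries (blue WT, red KO). Fibroblast and smooth muscle sums are highest in the KO libraries of experiment 1, and the macrophage sums lie between 16951 and 36195 CPM.

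Across the 8 libraries, levels of several members varied together or in opposition. Pearson's r of log2 CPM was -0.94 for Edn1 and Ednrb, 0.86 for Pdgfb and Igf1 and 0.81 for Ece1 and Vegfa. These values describe 8 libraries that share genotype and experiment, and carry no test. The genes most like each tested member were named by the highest r over the same libraries, members left out. For Edn1 they were Ccdc71l (r = 0.99), at 86.7 to 101.7 CPM in WT and 64.4 to 76.1 CPM in KO, and AC127556.5 (0.99). Ednrb was followed by Tnfrsf23 (0.99) and Tspan4 (0.98). Vegfa was followed by Glb1, the lysosomal beta-galactosidase (0.99), at 115 to 169 CPM in WT and 189 to 235 CPM in KO, and by Rnf44 (0.98). The nearest to Adm were Irf2bp1 (0.99) and Shox2 (0.98), and to Ece1 they were Dand5 (0.96) and Klrg2 (0.94). Pdgfb had Fam216a and RP24-467O4.3 (both 0.96), Hbegf had Samd14 (0.98) and Abhd8 (0.97), and Igf1 had Slc39a2 (0.97) and Slc27a4 (0.96). Of these genes, AC127556.5, Shox2 and Klrg2 reached at most 1.03, 2.03 and 1.19 CPM in any library. RP24-467O4.3, Samd14 and Slc39a2 reached at most 0.646, 0.606 and 0.590 CPM. The r of each of them rests on low counts.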

How the data were processed

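RNA was measured by RNA-seq (TruSeq Stranded mRNA) in 4 WT and 4 KO libraries, 2 of each in either experiment. Sample labels gave genotype and number, and the series' design text gave the experiment. The authors deposited raw counts per gene, used here, and normalized counts, not used because they were scaled within each experiment. The submitters' processing notes name STAR 2.7.0f, Subread 1.6.4, featureCounts, DESeq2 1.22.1 and GRCm38. The annotation release and the strand setting of the counting are not given in the sources used here, so reads of antisense genes that overlap Edn1, Ece1, Ace, Adm, Pdgfb and Igf1 could not be told apart from theirs. Coordinates and exon lengths are from GENCODE M21 (GRCm38).

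A gene was tested when it passed filterByExpr by genotype over the 8 libraries (minimum count 10), which left 14418 genes with 99.88% of the counts in the library with the lowest share. KO was compared with WT by edgeR 4.0.16 in R 4.3.3 (TMM scaling, robust quasi-likelihood F test) within each experiment, with both experiments and the experiment as a term, and as the interaction of experiment and genotype (experiment 2 minus experiment 1). P-values were adjusted by Benjamini-Hochberg over all genes tested, with a threshold of 0.05. Standard errors were derived from each log2 fold change and its F statistic. Single values were compared by exact permutation over 70 arrangements of the libraries (36 when labels were exchanged only within an experiment). Levels in CPM were scaled by the total of deposited counts, without TMM factors, and correlations used log2 CPM with a prior count of 2. Within replicate pairs, counts differed beyond counting noise (chi-square per gene 12.0 to 80.4). The code was tested on simulated data in which 200 of 14418 genes were changed 2-fold or 4-fold. Calls recovered 146 of them in experiment 1, 136 in experiment 2, 169 with both and 114 for the interaction. False calls were 21, 30, 13 and 5, in that order. Of the 2-fold changes, 65%, 55%, 72% and 41% were recovered.

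The members and the lists of pathway genes and markers were chosen with earlier results of these data known. Named are all 10 members, Mkl1, pathway genes called in both experiments, the 2 further pathway genes with the smallest p in each experiment, and the 2 genes most like each tested member. Other pathway genes are named where they make up a count, and values are given for Vegfb, Nrp1, Kdr and the markers Adgre1, Acta2, Tagln and Cdh5, chosen after their values were seen. Alternatives were DESeq2 1.42.0, limma-voom (limma 3.58.1), upper-quartile scaling, no filter beyond 1 count, at least 10 counts in every library, all 4 groups in 1 fit, no experiment term, a fit that kept the interaction, and leaving out each library. Figures were drawn with matplotlib 3.10.9.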

Additional observations from a re-analysis of the deposited data

Results flagged for a closer look

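The effect of genotype on Vegfa differed between the experiments by 0.64 on the log2 scale (experiment 2 minus experiment 1, edgeR adjusted p = 0.0394), with 4 of 4 KO libraries above all 4 WT libraries. That on Pdgfb differed by -1.60 (adjusted p = 0.0294), with KO above WT in experiment 1 and overlapping genotypes in experiment 2. Among the WT libraries, the level of Ace was set apart in WT 2, which had no count while the other WT libraries had 1 each. The gap to the nearest library was 0.844 of the range, which a single 0 among counts of 1 gives by itself.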

How the results depend on the processing

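No paired analysis was possible because the libraries carry the numbers 1 to 8 and the genotypes share none. Members called in experiment 2, 1 by the edgeR fit, were 4 with DESeq2 and 4 with all 4 groups in 1 fit (Adm, Edn1, Ednrb and Vegfa each time) and 3 with no filter beyond 1 count. With both experiments, 3 members became 0 without the experiment term by edgeR, where 4 had an unadjusted p under 0.05. Members with a called interaction, 2, were 5 with no filter. Pathway genes called in experiment 2, 10, were 16 with 4 groups in 1 fit. With both experiments, 6 became 11 with DESeq2, 22 when the interaction was kept and 0 without the experiment term, where 12 had an unadjusted p under 0.05. Leaving out each library gave 4 to 6 members in experiment 1, 0 to 1 in experiment 2, 0 to 3 with both and 0 to 4 for the interaction, and 16 to 21, 1 to 6, 1 to 6 and 13 to 21 pathway genes. Over all genes tested, calls with both experiments went from 1027 to 2492 with DESeq2, 4811 with the interaction kept, 4 without the experiment term and 243 to 1100 with a library left out. In experiment 2 they went from 2279 to 4899 with 4 groups in 1 fit, 3173 with DESeq2, 3006 of 28193 with no filter and 232 to 1388 with a library left out, and for the interaction from 5996 to 6725 of 28193 with no filter and between 3935 and 6508 with a library left out. The cause of these changes was not tested. Upper-quartile scaling raised the share of higher calls from 49.0% to 59.8% in experiment 1 and from 52.2% to 67.3% with both, and moved the median of all genes in experiment 1 from 0.0136 to 0.1134. The sign of values near 0 changed for Igf1 with both experiments (0.053 with upper-quartile scaling, 0.0021 with at least 10 counts) and for the Calcrl interaction (-0.021 with limma-voom, -0.00690 with upper-quartile scaling). With a library left out, it changed within these ranges: Hbegf in experiment 2, -0.92 to 0.50, Igfbp6 and Pdgfc in experiment 1, -0.34 to 0.086 and -0.115 to 0.31, Igf1 and Ramp1 with both, -0.16 to 0.16 and -0.84 to 3.24, and the interactions of Adm, -0.71 to 1.00, Calcrl, -0.23 to 0.28, and Adam17, -0.22 to 0.052. The other fold changes followed here kept their sign. They were those of the tested members, Mkl1, the pathway genes named for their calls or smallest p, Vegfb, Nrp1, Igfbp4 and Kdr. A library left alone in its group was assumed to vary like the others. Low counts left Ace untested except with no filter beyond 1 count, where no comparison called it. Agtr1a, without a count, was not tested in any setting.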
